A study of Homo sapiens with 3 samples.

Results

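The 10 genes examined encode the subunits of the hypoxia-inducible factors (HIFs) and the proteins that couple their stability and activity to oxygen: HIF1A, EPAS1, HIF3A, ARNT, ARNT2, EGLN1, EGLN2, EGLN3, HIF1AN and VHL. They were chosen by name for their place in the pathway upstream of VEGFA, not by their values, but with earlier results of these data known. The other gene lists below were also chosen with those results known. All 10 genes had a row among the 60880 gene rows of the table. The values come from 1 RNA-seq library, replicate 2 of wild-type NCI-H1975, an established human lung adenocarcinoma cell line grown in serum-containing medium without a stated drug or oxygen treatment. The study set these cells against a line resistant to anlotinib, a drug that blocks vascular endothelial growth factor receptors and other tyrosine kinases, and also knocked down the transcription factor TFAP2A in resistant cells. The resistant and knockdown cells and the 2 wild-type ATAC-seq samples were not analysed here. A single library gives neither a replicate spread nor a p-value, and no cell states were compared.

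A HIF is a pair of basic helix-loop-helix PAS proteins, an alpha subunit whose amount is set by oxygen and a beta subunit that is stably present. In oxygenated cells prolyl hydroxylases (the EGLN proteins) modify the alpha subunit, VHL binds the modified form, and a ubiquitin ligase built on VHL marks it for the proteasome, while the asparaginyl hydroxylase encoded by HIF1AN blocks its coactivator contact. The oxygen signal therefore acts mainly on protein, and mRNA counts show which parts of the system are transcribed and not how active it is.

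The library held 25012733 counts, so 1 count was worth 0.0400 CPM (counts per 1000000 counts of the library). A gene without a count could still lie at up to 0.120 CPM (3 counts, a one-sided 95% limit). A gene with at least 10 counts was called detected, which held for 69.6% of 19216 protein-coding genes. The median protein-coding gene had 243 counts, or 9.72 CPM. Intervals below are two-sided 95% intervals that cover counting error only, since the labels name no molecular identifiers and several reads may come from 1 molecule. Transcript lengths were not used here, so every ratio between genes is a ratio of read numbers and not of molecules. All 7 epithelial markers listed were detected, from 2926 counts for NKX2-1 to 132533 for KRT7, with 65584 for KRT8 and 48349 for KRT19. Endothelial markers had at most 340 counts (CDH5), with 5 of 10 detected, and TIE1, CLDN5, EMCN and CD34 were at 0. Their number was 1 with a minimum of 50 counts, 3 with a minimum of 1 CPM and 3 after random thinning of the counts to 50%. Of 6 fibroblast markers COL1A1 and COL1A2 had 7847 and 4104 counts, while COL3A1 had 2 and DCN, LUM and PDGFRA were at 0. Of 7 leukocyte and erythroid markers CD14 and CD79A had 600 and 217 counts, PTPRC had 2, and HBA1 and HBB were at 0.

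Of the 10 genes 9 were detected, beside 69.6% of protein-coding genes, and HIF3A was the exception. All 10 had at least 1 count, which held for 78.8% of protein-coding genes. Their median was 58.5 CPM, and 7 of the 10 lay above the protein-coding median. Together they took 24971 counts, of which HIF1A held 36.9% (36.3 to 37.5) and EPAS1 30.4% (29.8 to 31.0). Reads of the group were thus mostly those of its alpha subunits.

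**Figure D1:**
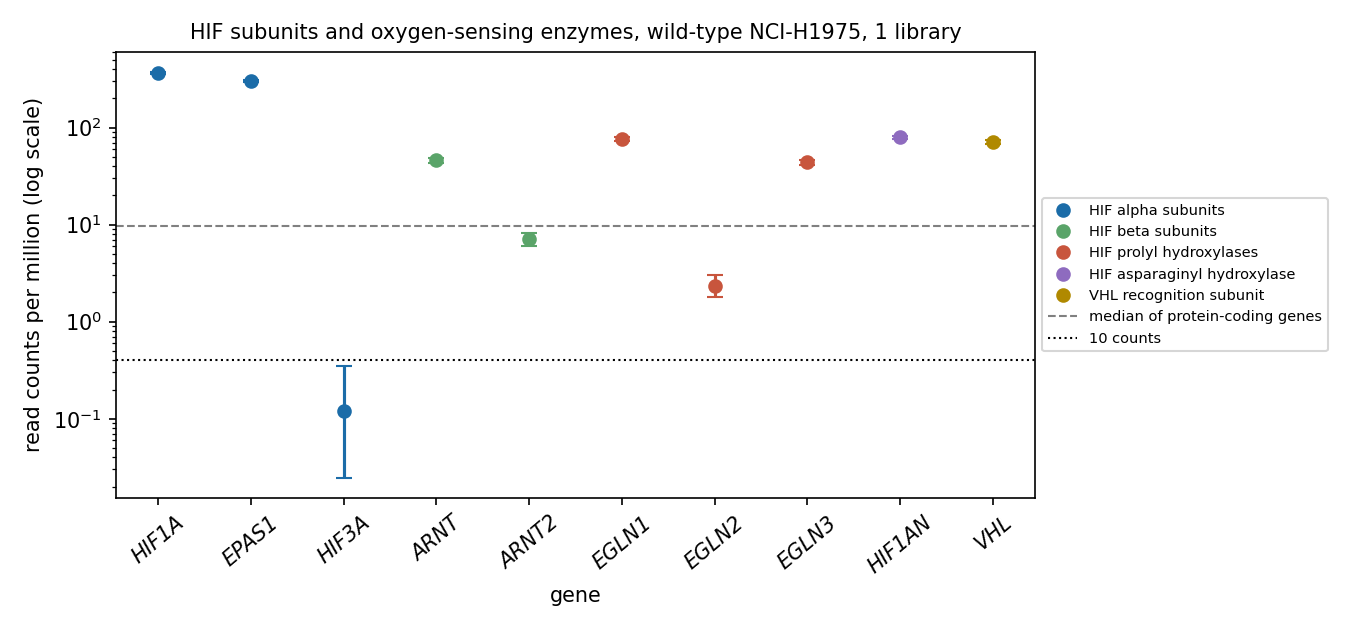
Level of each of the 10 genes in the wild-type library, in CPM on a log axis, coloured by role; points are the values and bars the 95% Poisson intervals, with the protein-coding median (9.72 CPM) dashed and 10 counts dotted. HIF1A and EPAS1 stand highest at 369 and 303 CPM, ARNT2 and EGLN2 lie below the dashed line, and HIF3A lies below the dotted line.

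HIF1A and EPAS1, the alpha subunits of HIF-1 and HIF-2, were both highly read, and the alpha gene HIF3A was almost unread. HIF1A (identifier ENSG00000100644.16_4) had 9218 counts, or 369 CPM (361 to 376), more than 98.1% of protein-coding genes. EPAS1 (ENSG00000116016.13_2) had 7589 counts, or 303 CPM (297 to 310.3), more than 97.5% of them. The read ratio of HIF1A to EPAS1 was 1.21 (1.18 to 1.25), a difference in reads larger than counting error. HIF3A (ENSG00000124440.15_2), whose spliced forms include inhibitors of the other alpha subunits, had 3 counts, or 0.120 CPM (0.0247 to 0.351). The HIF1A to HIF3A read ratio was 3073 (1051 to 14902), and that of EPAS1 to HIF3A was 2529.7 (865 to 12269). HIF1A and EPAS1 therefore split the alpha reads at 54.8% (54.1 to 55.6) and 45.1% (44.4 to 45.9), with 0.0178% (0.00368 to 0.0521) for HIF3A.

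EPAS1 is known for its high expression in endothelium, so its value was read beside the endothelial markers. The 10 markers with a row summed to 451 counts, or 0.00180% of the library, against 7589 counts for EPAS1 alone. CDH5, a cadherin of endothelial junctions, held most of these with 340 counts, or 13.6 CPM (12.2 to 15.1), above the protein-coding median. ROBO4 had 47 counts, KDR had 35, ESAM had 18, VWF had 10 and TEK had 1. The library came from a cultured cell line and not from a tissue, and the part of other cells in the EPAS1 value was not tested.

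Antisense genes lie at the HIF1A locus, and the strand setting of the authors' counting (not given in the sources used here) decides which row takes their reads. HIF1A-AS1 had 181 counts, or 7.24 CPM (6.22 to 8.37), and HIF1A-AS3 had 11 counts. HIF1A had 50.9 times (44.0 to 59.3) the reads of HIF1A-AS1. The antisense values are uncertain for the reason given. The pseudogene HIF1AP1 was at 0.

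To show what precedes the most read and the least read alpha gene, the 250 bases before the first listed RefSeq start of each (GRCh38.p14) are given. Capitals mark GCGTG and ACGTG, the forms of the core that HIFs bind, searched on both strands.
HIF1A (chr14:61695263-61695512, plus strand): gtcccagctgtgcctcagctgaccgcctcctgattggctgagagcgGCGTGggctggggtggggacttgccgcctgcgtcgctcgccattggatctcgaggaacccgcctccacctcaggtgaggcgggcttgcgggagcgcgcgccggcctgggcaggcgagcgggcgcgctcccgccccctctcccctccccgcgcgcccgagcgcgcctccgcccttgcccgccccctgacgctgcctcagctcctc
HIF3A (chr19:46296792-46297041, plus strand): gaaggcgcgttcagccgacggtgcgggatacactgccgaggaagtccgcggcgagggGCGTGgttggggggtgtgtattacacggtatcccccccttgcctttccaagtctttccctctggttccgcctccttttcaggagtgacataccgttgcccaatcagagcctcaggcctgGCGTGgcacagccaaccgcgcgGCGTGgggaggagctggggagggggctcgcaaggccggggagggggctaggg
The GC content of these windows was 75.6% for HIF1A and 66.4% for HIF3A, and the observed to expected ratio of CpG was 0.822 and 0.744. The least read gene held GCGTG 3 times and the most read gene held it once. Of 21495 promoters of protein-coding genes with a row, 38.4% held GCGTG in the same window. The other start listed for HIF1A had a GC content of 31.2% and a CpG ratio of 0.505 and held neither core. The other starts listed for HIF3A had GC contents of 65.2% and 61.2% and CpG ratios of 0.221 and 0.171, and held neither core. The median CpG ratio was 0.786 over promoters of detected protein-coding genes and 0.336 over those of genes under 10 counts, so the first HIF3A window was closer to the former.

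The beta subunit reads came mostly from ARNT, the common partner of the HIF alpha subunits and of the dioxin receptor AHR. ARNT (ENSG00000143437.20_3) had 1147 counts, or 45.9 CPM (43.2 to 48.6). ARNT2 (ENSG00000172379.20_4), a paralog best known from neurons, was detected at 176 counts, or 7.04 CPM (6.04 to 8.16), under the protein-coding median. ARNT held 86.7% (84.7 to 88.5) of beta reads, and the read ratio of ARNT to ARNT2 was 6.52 (5.56 to 7.68). Both abundant alpha genes had more reads than ARNT: HIF1A had 8.04 times (7.56 to 8.55) and EPAS1 6.62 times (6.22 to 7.05) the reads of ARNT. Summed alpha reads were 12.7 times (12.0 to 13.4) summed beta reads.

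Other PAS proteins can compete for ARNT or act in the circadian clock, and AHR was the most read of them. Of 11 such genes 7 passed the minimum, beside 69.6% of protein-coding genes, and the median over all 11 was 9.95 CPM. AHR had 4254 counts, or 170.1 CPM (165 to 175), which was 3.71 times (3.47 to 3.96) the reads of ARNT and 0.461 times (0.445 to 0.479) those of HIF1A. Its repressor AHRR had 249 counts. The clock genes NPAS2, CLOCK, BMAL2 and BMAL1 had 1553, 575, 412 and 316 counts. NPAS1 had 46 counts, NPAS3 had 3 and NPAS4 had 1, and the developmental factors SIM1 and SIM2 were at 0. Transcripts of HIF1A, EPAS1 and AHR, all partners of ARNT, were thus each present in more reads than ARNT itself.

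Among the prolyl hydroxylases EGLN1, which encodes PHD2, the main oxygen sensor for HIF1A in most cells, had the most reads. EGLN1 (ENSG00000135766.8_2) had 1923 counts, or 76.9 CPM (73.5 to 80.4). EGLN3 (ENSG00000129521.13_3), which encodes PHD3 and is itself a strongly induced HIF target, had 1093 counts, or 43.7 CPM (41.1 to 46.4). The read ratio of EGLN1 to EGLN3 was 1.76 (1.63 to 1.90). EGLN2 (ENSG00000269858.5_3), which encodes PHD1, had 59 counts, or 2.36 CPM (1.80 to 3.04), 0.0540 times (0.0408 to 0.0702) the reads of EGLN3. EGLN1, EGLN3 and EGLN2 held 62.5% (60.8 to 64.3), 35.5% (33.9 to 37.3) and 1.92% (1.46 to 2.47) of the reads of the 3 genes. These shares, the EGLN2 to EGLN3 ratio and the sum that follows take the EGLN2 count as it stands. That count carries a limit given below. The 3075 prolyl hydroxylase reads were 0.183 times (0.176 to 0.190) the reads of the alpha subunits. EGLN3-AS1 had 1 count, and the pseudogenes EGLN1P1 and EGLN3P1 were at 0.

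The EGLN2 value carries a limit of annotation. The table has a row for RAB4B-EGLN2, an annotated read-through transcript that joins EGLN2 to the neighbouring gene RAB4B and overlaps it. How the authors treated reads that fall in 2 genes was not stated in the labels. RAB4B-EGLN2 was at 0, RAB4B had 11 counts and MIA-RAB4B, which overlaps RAB4B in the same way, was at 0. Read-through genes were found by name, as symbols that join 2 protein-coding symbols with a hyphen. Other genes were not screened for overlap by position. Among all rows, 113 read-through genes had both parts among protein-coding rows, and 65 of these read-through rows were at 0. Their 224 parts were detected in 75.0% of cases, against 69.8% of 18919 other protein-coding genes, but the detected parts had a median of 6.68 CPM against 26.7 CPM. Among the parts, the ribosomal protein genes RPS10, RPL36A and RPL17 had 31, 172 and 297 counts, and URGCP had 2677. Their partners NUDT3, HNRNPH2, C18orf32 and MRPS24 had 1075, 1517, 82 and 24 counts. The read-through rows that join these pairs were at 0. These pairs were picked as examples after their values were seen. EGLN2 exceeded 47.3% of the parts and 38.2% of the other genes. The part of shared reads in the EGLN2 value was not tested, and its count is a lower limit if such reads were dropped.

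**Figure D2:**
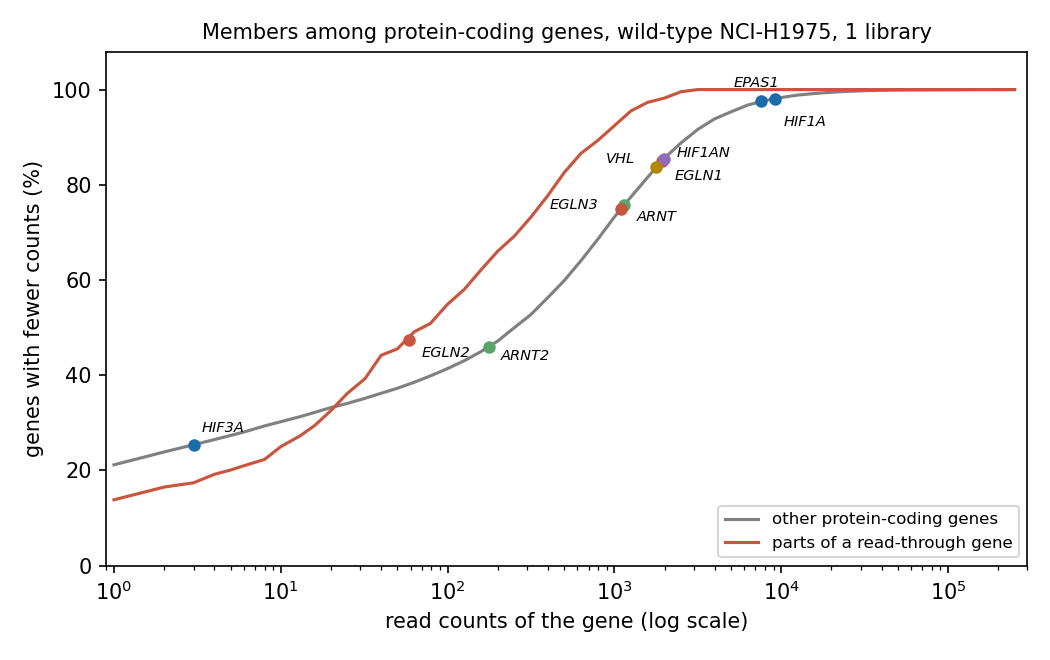
Share of genes with fewer counts (%) against read counts of a gene on a log axis, for 224 parts of annotated read-through genes (red line) and 18919 other protein-coding genes (grey line); points are the 10 genes, each on the line of its own set and coloured by role as in the plot of members. EGLN2 lies near the middle of the red line at 47.3%, while HIF1A and EPAS1 lie at 98.1% and 97.5% of the grey line.

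The prolyl hydroxylase promoters are shown because the family holds both HIF-induced genes and the low EGLN2 count. The 250 bases before the first listed start of each are given in the same way, with ACGTG and GCGTG in capitals.
EGLN1 (chr1:231422288-231422537, minus strand): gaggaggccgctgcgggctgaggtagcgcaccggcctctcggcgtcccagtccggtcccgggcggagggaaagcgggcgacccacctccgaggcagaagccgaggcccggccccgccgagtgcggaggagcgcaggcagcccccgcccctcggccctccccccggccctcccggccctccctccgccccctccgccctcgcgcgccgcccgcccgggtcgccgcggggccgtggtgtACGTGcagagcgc
EGLN2 (chr19:40798941-40799190, plus strand): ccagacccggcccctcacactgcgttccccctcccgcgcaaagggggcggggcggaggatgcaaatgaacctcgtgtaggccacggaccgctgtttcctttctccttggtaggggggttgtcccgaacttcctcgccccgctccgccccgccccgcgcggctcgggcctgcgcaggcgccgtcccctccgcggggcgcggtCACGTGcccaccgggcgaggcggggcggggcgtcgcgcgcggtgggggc
EGLN3 (chr14:33951075-33951324, minus strand): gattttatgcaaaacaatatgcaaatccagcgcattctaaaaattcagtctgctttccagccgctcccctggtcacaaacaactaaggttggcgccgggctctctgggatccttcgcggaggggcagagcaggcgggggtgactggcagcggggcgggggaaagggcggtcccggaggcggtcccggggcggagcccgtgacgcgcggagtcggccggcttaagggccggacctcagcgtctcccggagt
EGLN1 held ACGTG from 13 to 9 bases before its start. EGLN2 held CACGTG from 49 to 44 bases before its first start, where ACGTG reads on both strands. This palindrome is also the E-box of other helix-loop-helix factors. The other start listed for EGLN2 had a GC content of 81.2% and a CpG ratio of 1.14 and held neither core. EGLN3 held neither core in the 250 bases shown. Bases outside these windows were not searched, so the cores found or missed here do not settle HIF control of these genes. Of protein-coding promoters 20.2% held ACGTG, 38.4% held GCGTG and 7.37% held CACGTG. In all, 8 of the 10 genes matched the promoter table with 12 starts, of which 2 held ACGTG and 3 held GCGTG. EPAS1 was the other gene with GCGTG, beside HIF1A and HIF3A, and ARNT and HIF1AN held neither core.

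HIF1AN, which encodes factor inhibiting HIF (FIH), was read about as often as EGLN1. HIF1AN (ENSG00000166135.13_2) had 1984 counts, or 79.3 CPM (75.9 to 82.9), and its read ratio to EGLN1 was 1.03 (0.969 to 1.10), an interval that includes 1. VHL (ENSG00000134086.7_2), the substrate receptor lost in clear cell kidney cancer, had 1779 counts, or 71.1 CPM (67.9 to 74.5). Its read ratio was 0.925 (0.867 to 0.987) to EGLN1 and 0.897 (0.841 to 0.956) to HIF1AN. The reads of HIF1AN, EGLN1 and VHL therefore lay within a narrow range of 71.1 to 79.3 CPM. The VHL-like gene VHLL had 1 count.

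Every listed partner of the VHL ligase was detected (6 of 6, median 41.8 CPM), beside 69.6% of protein-coding genes. ELOB, the elongin that bridges VHL and the cullin together with ELOC, had 4718 counts, or 189 CPM (183 to 194), and ELOC had 1231. The scaffold CUL2 had 685 counts, or 27.4 CPM (25.4 to 29.5), and the RING subunit RBX1 had 860. UBE2M, which conjugates the cullin activator NEDD8, had 4711 counts. NEDD8 had 742 counts and belongs to an annotated read-through gene, NEDD8-MDP1, which had 1 count. Against VHL, ELOB had 2.65 times (2.51 to 2.80) and CUL2 0.385 times (0.352 to 0.421) the reads.

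In order of read number the 10 genes ran HIF1A, EPAS1, HIF1AN, EGLN1, VHL, ARNT, EGLN3, ARNT2, EGLN2 and HIF3A. The place of EGLN2 rests on a count with the limit of annotation given above. Of the 9 neighbouring pairs, HIF1AN with EGLN1 and ARNT with EGLN3 could not be ordered beyond counting error. The ARNT to EGLN3 read ratio was 1.05 (0.965 to 1.14). The EGLN1 to VHL ratio of 1.08 (1.01 to 1.15) was close to that limit. The widest steps were EGLN2 to HIF3A at 19.7 (6.41 to 98.1), EGLN3 to ARNT2 at 6.21 (5.29 to 7.32) and EPAS1 to HIF1AN at 3.83 (3.64 to 4.02).

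Of 20 genes that act on HIF stability or transcription 19 passed the minimum, beside 69.6% of protein-coding genes. The median over all 20 was 66.3 CPM. RACK1, which promotes oxygen-independent degradation of HIF1A, and the chaperone genes HSP90AA1 and HSP90AB1, whose products protect it, had the most reads at 36995, 30592 and 22861 counts. HSP90AA1 and HSP90AB1 resemble each other and have processed copies, so their separate values are uncertain. The coactivators EP300 and CREBBP had 4198 and 3874 counts, or 168 and 155 CPM. CITED2, which competes with HIF for them, had 1670 counts, CITED4 had 155 and CITED1 was at 0. The ubiquitin ligases SIAH2 and SIAH1, which act on the hydroxylases, had 958 and 741 counts. The LIM proteins AJUBA, LIMD1 and WTIP, which can bring EGLN1 and VHL together, had 4169, 1571 and 46 counts.

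Other enzymes that need oxygen, most of them with 2-oxoglutarate and iron, were all detected (22 of 22, median 49.0 CPM). The detected share of protein-coding genes was 69.6%. ASPH, an aspartyl and asparaginyl hydroxylase of EGF-like domains, had 7883 counts, or 315 CPM. The lysyl hydroxylase PLOD3 had 7050 counts and the histone demethylase KDM5C had 6943. P4HTM, a membrane-bound prolyl hydroxylase related to the EGLN family, had 2125 counts, or 85.0 CPM (81.4 to 88.6). The demethylases KDM5A and KDM6A, described as direct oxygen sensors, had 1198 and 678 counts, and ADO, which senses oxygen through N-terminal cysteines, had 1116. TET1 and P4HA3 were lowest with 92 and 67 counts.

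Genes that supply or inhibit the hydroxylases were detected in 19 of 20 cases, beside 69.6% of protein-coding genes, with a median of 90.5 CPM. The ferritin genes FTH1 and FTL had 110491 and 16413 counts, values that processed copies make uncertain. PCBP1, an iron chaperone that can load the HIF hydroxylases, had 6581 counts and the transferrin receptor TFRC had 5401. The enzymes whose loss lets the hydroxylase inhibitors succinate and fumarate build up were all read, with 8458 counts for SDHA, 2780 for SDHC, 1213 for SDHB, 498 for SDHD and 1828 for FH. Of the vitamin C transporters, SLC23A2 had 1904 counts and SLC23A1 had 2.

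Of 46 HIF target genes 42 passed the minimum of 10 counts, beside 69.6% of protein-coding genes. Their median was 112 CPM, and 40 lay above the protein-coding median. These genes answer to many other signals, and no oxygen contrast was analysed. Each of the 21 glycolytic and pH genes passed the minimum (median 201 CPM), led by GAPDH, ENO1 and LDHA with 100834, 83934 and 25285 counts. PDK1 and CA9, the latter a membrane carbonic anhydrase much used as a hypoxia marker, were at the low end with 571 and 676 counts. All 16 of the other targets were detected (median 111 CPM), led by the cytokine gene MIF with 11531 counts, VEGFA with 8849 and DDIT4, a brake on mTOR, with 6758. VEGFA had 0.960 times (0.932 to 0.988) the reads of HIF1A and 1.17 times (1.13 to 1.20) those of EPAS1. ADM, which encodes adrenomedullin, and ANKRD37 were low at 124 and 56 counts. Across these glycolytic and other targets the reads ranged from 56 counts for ANKRD37 to 100834 for GAPDH.

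Of the targets often tied to EPAS1, 5 of 9 were detected, beside 69.6% of protein-coding genes, and the median over all 9 was 29.9 CPM. With a minimum of 1 count the number was 8, beside 78.8% of protein-coding genes. LOXL2, a lysyl oxidase, had 13670 counts, or 547 CPM, and cyclin D1 (CCND1) had 5615. SLC11A2, an iron transporter, had 1279 counts and the growth factor gene TGFA had 749. The erythropoietin gene EPO had 5 counts, POU5F1 and TEK had 1 each, and ANGPT2 was at 0.

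**Figure D3:**
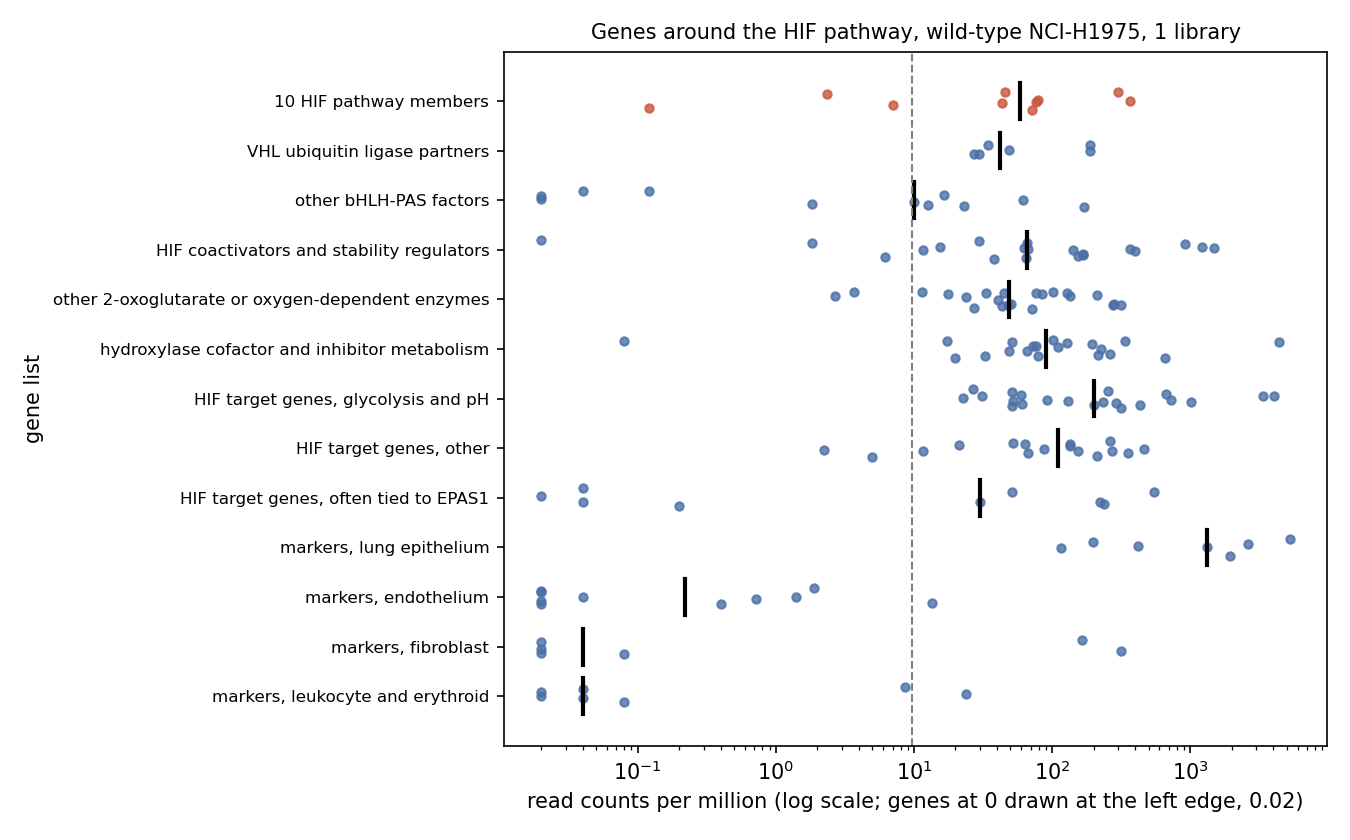
Level of each gene by list in the wild-type library, in CPM on a log axis; points are genes, black ticks the median of all genes with a row, the dashed line the protein-coding median (9.72 CPM), and genes at 0 stand at the left edge. The 10 HIF pathway genes (red, median 58.5 CPM) spread from 0.120 to 369 CPM, and most target genes of the first 2 target lists lie right of the dashed line.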

How the data were processed

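RNA was measured by directional RNA-seq in 1 wild-type NCI-H1975 library. The authors deposited raw whole-number read counts per gene with Ensembl identifiers. STAR, featureCounts and hg19 stand in the submitters' processing notes, without roles; annotation release, strand setting and treatment of shared reads were not stated. Identifiers were matched without version to a table of symbols (56414 of 60880 rows, 99.8% of counts). The 41 Y copies of pseudoautosomal genes held 0 counts. Gene types, synonyms and promoters came from RefSeq (GRCh38.p14). Transcript or coding lengths were not used here, so the planned values per kilobase were not made.

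CPM values were counts per 1000000 of the library total. Levels have exact Poisson intervals, shares Clopper-Pearson intervals and read ratios conditional binomial intervals, all at 95%, covering counting error only; half-widths ran from 2.05% (HIF1A) to 26.4% (EGLN2) of the level in detected members. No test was made with 1 library. The interval code was tested on simulated data. The members and the 12 other lists (156 entries, PECAM1 without a row matched by name) were chosen with earlier results of these data known. A listed gene that the naming rule would name is not reported here. The rule named all members, ligase partners, other PAS genes, rows that carry a member's symbol, and the 3 highest genes and up to 3 under 10 counts of each list. Other listed genes, RAB4B, MIA-RAB4B and the read-through comparison were added after their values were seen, as were the promoter motifs and the read ratios outside 12 fixed pairs. Intervals were computed with SciPy 1.17.1 and tables with pandas 2.3.3 under Python 3.11.15.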

Additional observations from a re-analysis of the deposited data

How the results depend on the processing

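With a minimum of 1 or 50 counts or 1 CPM, or with counts thinned at random to 50%, 47 of 52 detection counts stayed within 1.5 times of their value, members included. The exceptions were endothelial markers (1 at 50 counts, 3 at 1 CPM, 3 after thinning) and, at 1 count, EPAS1-tied targets (8) and markers of leukocytes or erythroid cells (5). Lists at or near full detection could not rise by 1.5 times, so for them the minimum of 1 count could not show a change. After thinning 7 of 10 ratios stayed inside their intervals. EGLN1 to EGLN2 became 44.3, EGLN2 to EGLN3 became 0.0391 and HIF1AN to EGLN1 became 0.952; thinning draws fewer counts and leaves the expected ratio unchanged. Ratios to HIF3A could not be formed, since it kept 0 counts. Totals without mitochondrial genes, without the 10 genes with the highest counts, or of protein-coding genes only multiplied every CPM by 1.06, 1.08 or 1.09. This left the order and ratios of genes unchanged. Of 30 such levels of single members, however, only 11 stayed inside their counting intervals. HIF1A went from 369 CPM (361 to 376) to 389, 397 and 400.0 CPM. Values per kilobase were not run. No paired analysis was possible because there was a single library.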

Other observations

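The promoter windows of the HIF target genes held the core ACGTG more often than those of protein-coding genes at large. Of 63 windows from 36 target genes that matched the promoter table, 44.4% held ACGTG and 14.3% held CACGTG, against 20.2% and 7.37% of 21495 protein-coding windows. For GCGTG the shares were 44.4% and 38.4%. Windows of 1 gene overlap or share sequence, and the target windows were richer in GC, with a median of 67.6% against 62.0%. The genes were also listed as HIF targets and the core is one that HIFs bind, so the choice may itself favour it. These shares are therefore a description only. Windows of detected protein-coding genes held ACGTG in 21.8% of cases and those of genes under 10 counts in 15.8%.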
